A study of Mus musculus with 6 samples.

Results

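Matrix metalloproteinases (Mmp genes), their relatives of the ADAMTS family and the tissue inhibitors of both (Timp genes) were followed in mouse dermal fibroblasts treated with 5-aza-2'-deoxycytidine (decitabine), a cytidine analogue that traps DNA methyltransferases. The members were all genes on the array whose symbol is Mmp, Adamts or Timp followed by a number and at most 1 letter, each read on its brightest probe set. There were 37 of them among 18193 named genes, namely 15 Adamts, 18 Mmp and 4 Timp genes. Signals of 26 members, 10 Adamts, 12 Mmp and all 4 Timp, were bright enough to be tested. The other 11 (Adamts3, Adamts8, Adamts18, Adamts19, Adamts20, Mmp1a, Mmp1b, Mmp8, Mmp12, Mmp13 and Mmp20) lay below the filter and are given as signals only.

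Total RNA of the cells had been hybridised to 6 Affymetrix mouse expression arrays, 2 for each of 3 groups. The cells were explant cultures from the dermis of newborns of 0 to 2 days, used at passage 4. Per the labels they came from females that carried, from the father's side, a GFP transgene on the X chromosome, driven by the chicken β-actin promoter with a CMV enhancer. The transgenic line was of mixed 129/ICR background and was crossed to BL6 females, and the strain label reads B6. Per the descriptions, all groups started from cells sorted for lack of GFP, which in female carriers have the transgene on the inactive X. Against this, the sex entry of control replicate 2 reads mix, and sons do not inherit an X-linked transgene from the father. Its labels also lack the sort entry that the other 5 arrays have, although its title reads unsorted, as for control replicate 1. The descriptions of treated samples hold the word untreated beside the dose, while their titles, treatment entries and protocol give the drug, and the groups follow the titles. Control cells stayed untreated for 48 h with 24 h of recovery and went through no further sort. Treated cells received 4 μM of the drug for 48 h, renewed every 24 h, recovered for 24 h, and were sorted into GFP-negative cells and GFP-positive cells, those that had switched the transgene on. The drug and the further sort cannot be told apart in either comparison with control cells. The labels call the arrays biological replicates and name no separate cultures or animals, so the p-values cover no more than the spread among these 6 arrays.

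Mmp and ADAMTS enzymes are zinc proteases that cut collagens, proteoglycans and other components of the extracellular matrix, and dermal fibroblasts are one of their sources in skin. Most are made as inactive precursors. TIMPs bind the active site of the enzymes and block it, so the balance of proteases and inhibitors sets how much matrix is degraded.

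Values are scaled signals, brought to a trimmed mean of 500 on every array. Differences are on the scale of log2(signal + 30.64), which understates the change of dim genes, and are given with their standard error (SE). Replicate 2 of both treated groups had been deposited at 62.0 and 50.5 in place of 500 and was multiplied by 8.06 and 9.90. After scaling the lower quartile was still 19.2 to 22.6 on the replicate 2 arrays against 38.7 to 42.6 on the replicate 1 arrays. Many of the differences are therefore also given within replicate 1 and within replicate 2. The test was limma over 27022 probe sets with Benjamini-Hochberg adjustment, and a gene was called at an adjusted p under 0.05. The same fit with the replicate number as a block, called the blocked fit here, compares arrays within a number, and its value is given where it changes the call. Every SE is from the fit without the block, also beside a p of the blocked fit, which has an SE of its own. Both treated groups are compared with the same 2 control arrays, so their differences from control are not independent of each other.

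Signals of several matrix proteases were lower in treated cells, with exceptions. Adamts1, Adamts5, Adamts12, Adamts9, Mmp11, Mmp23, Mmp14 and the inhibitor Timp3 were lower in GFP-positive than in control cells in both replicates. Mmp10 and Timp1 were higher. In the unblocked fit 1 of 26 tested members was called, Adamts1, which was lower, where 0.151% of all genes tested were called (0.0454% as lower), each gene read on its brightest tested probe set. Another 7 members had an unadjusted p under 0.05 in limma, which makes 8 with Adamts1, where 1135 of 13223 genes tested had such a p. The blocked fit called 10 of 26, 8 lower and 2 higher, where it called 7.77% of all genes, 3.8% as lower and 3.97% as higher, but 0 of 26 when it was fitted without the mean-variance trend. Over the tested members the median log2 difference was -0.46 (-0.47 in replicate 1 and -0.52 in replicate 2), and over all genes tested it was 0.04. The members' median was -0.17 without GFP-positive 2 (also without both rescaled arrays), -0.20 without control 1, -0.77 without control 2 and -0.83 without GFP-positive 1. A total of 18 of the 26 were lower in both replicates, against 29.2% of all genes, and 3 were higher in both, against 36.2%. Counting also the dim members, 23 of 37 were lower and 5 higher in both, against 4988 and 6213 of all 18193 named genes. Differences of 1 or more in both replicates were found as lower signals in 7 members, against 1.26% of all genes, and as a higher signal in 1, Mmp10, against 1.91%. Mmp10 passed the filter through its treated arrays, and without the filter its blocked adjusted p in limma was 0.0283. In these bulk samples fewer cells of a type and less RNA per cell cannot be told apart.

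**Figure D1:**
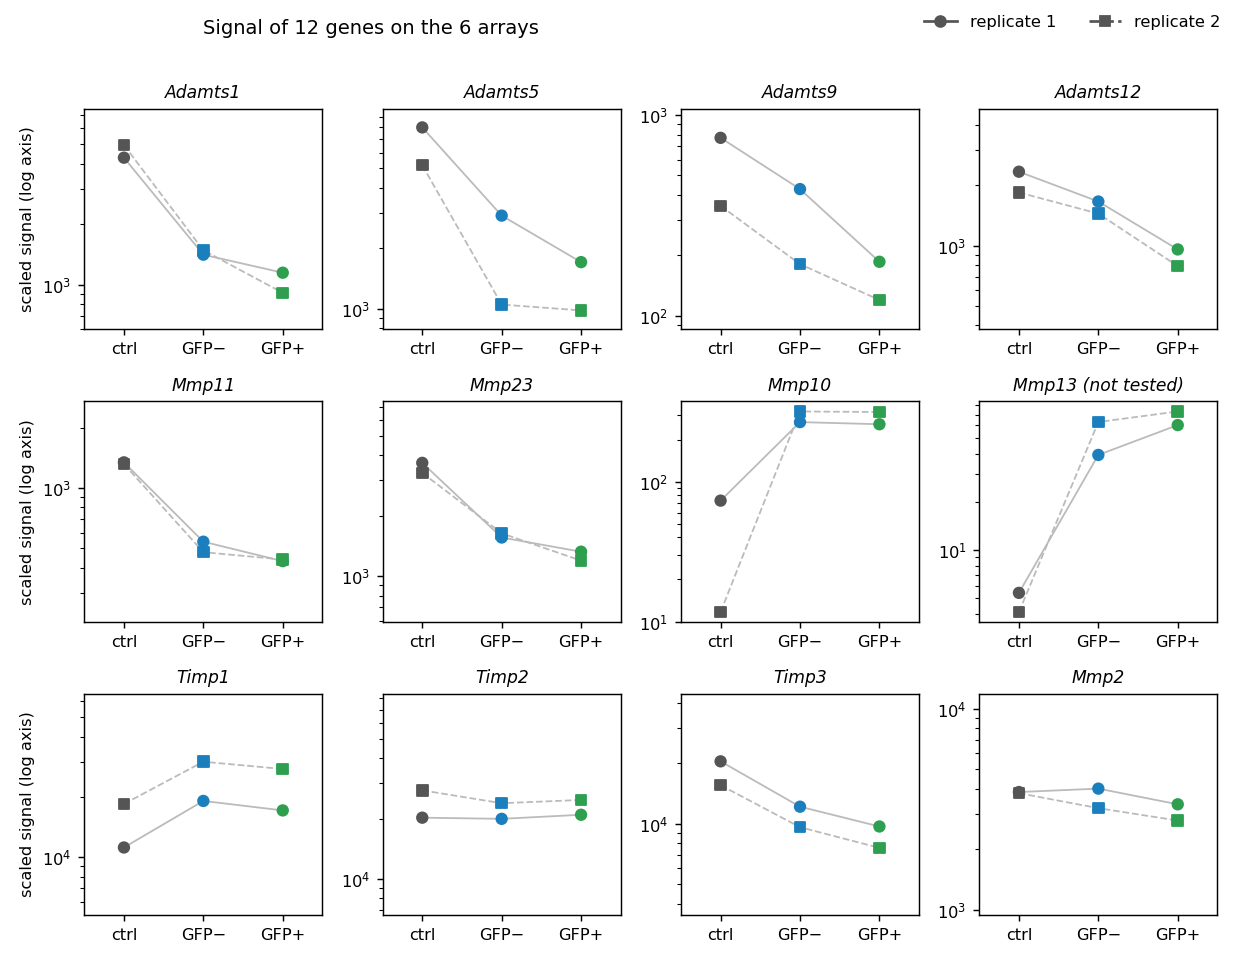
Scaled signal (log axis, arbitrary units, with a range of its own in each panel) of members on each of the 6 arrays, by group, with lines joining the arrays of the same replicate number. For Adamts1, Adamts5, Adamts12, Mmp11, Mmp23 and Timp3 all 4 treated points lie below both control points. For Mmp10 and Mmp13 all 4 lie above both.

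Among the ADAMTS genes, lower signals were measured for several enzymes that cut aggrecan and versican, large proteoglycans of the matrix. Adamts1 is a proteoglycanase known for processing versican. Its signal was 4291 and 4964 on control arrays, 1409 and 1483 on GFP-negative arrays and 1146 and 909.4 on GFP-positive arrays. The control arrays lay far above all 4 treated arrays, and GFP-positive cells kept 26.7% and 18.3% of the control signal of the same replicate number. The log2 difference was -2.14 ± 0.22 (SE) between GFP-positive and control cells, with an adjusted p of 0.0292 in limma (3.56e-05 with the block), and it was -1.88 in replicate 1 and -2.41 in replicate 2. The call was lost when any of the 4 arrays compared was left out (control 1, control 2, GFP-positive 1 or GFP-positive 2), with adjusted p from 0.0932 to 0.271, while the difference stayed between -2.31 and -1.98. Median centring (adjusted p 0.0692) and a fit without the mean-variance trend (0.293, or 0.0865 with the block as well) also ended it. For GFP-negative cells the difference was -1.65 ± 0.22, with an adjusted p of 0.0993 in limma and 0.000284 with the block.

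Adamts5 encodes the principal aggrecan-cleaving enzyme of mouse cartilage and lies beside Adamts1 on chromosome 16, with 0 protein-coding genes between them in the RefSeq gene table. Its signals were 8005 and 5186 in controls, 2908 and 1047 in GFP-negative cells and 1705 and 979.6 in GFP-positive cells. All treated arrays were again below both control arrays, with the replicate 2 array lower than the replicate 1 array in each group. GFP-positive cells differed from control cells by -2.29 ± 0.49 (-2.21 and -2.37 by replicate), adjusted p 0.216 in limma and 5.48e-05 with the block. GFP-negative cells differed by -1.86 ± 0.49 (-1.45 and -2.27), adjusted p 0.53, and 0.000332 with the block. A further pair of probe sets for Adamts5 gave -2.11 and -2.45 in GFP-positive cells, with blocked adjusted p of 0.000445 and 0.000212 in limma, and a dim one was not tested.

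Adamts9, a versican-cleaving enzyme, gave 770.2 and 352.7 in controls, 427.5 and 180.6 in GFP-negative cells and 185.6 and 119.7 in GFP-positive cells. The GFP-positive arrays were below both controls, while GFP-negative replicate 1 lay between the controls. The difference for GFP-positive cells was -1.62 ± 0.51 (-1.89 and -1.35), adjusted p 0.464 in limma and 0.00435 with the block. Its other probe sets disagreed, at -1.07 (blocked adjusted p 0.183) and 0.56 (0.542), so the value rests on 1 probe set. For GFP-negative cells it was -0.83 ± 0.51, not called in either fit (0.126 with the block).

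Adamts12, a protease known for cutting the cartilage protein COMP, showed steps between the groups. The signals were 2337 and 1842 in controls, 1660 and 1444 in GFP-negative cells and 957.3 and 790.6 in GFP-positive cells. The 3 groups did not overlap, in the order control, GFP-negative, GFP-positive. GFP-positive cells differed from controls by -1.22 ± 0.24 (-1.26 and -1.19), adjusted p 0.171 in limma and 0.000719 with the block. GFP-negative cells differed from controls by -0.42 ± 0.24, called in neither fit (0.191 with the block). Between GFP-positive and GFP-negative cells the difference was -0.81 ± 0.24 (-0.77 and -0.84), with a blocked adjusted p of 0.576 in limma, so this step did not pass the test.

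Adamts4 and Adamts15, further aggrecanases, did not follow. Adamts4 gave 456.8 and 354.5 in controls, 337.9 and 596.6 in GFP-negative cells and 371.0 and 336.4 in GFP-positive cells, with overlapping groups and a difference of -0.17 ± 0.34 for GFP-positive cells. Adamts15 gave 141.5 and 91.1 in controls, 160.7 and 109.6 in GFP-negative cells and 132.1 and 85.1 in GFP-positive cells, a difference of -0.08 ± 0.49. Neither was called in any comparison or fit.

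The remaining tested ADAMTS genes were Adamts6 (-0.53 ± 0.27), Adamts7 (-0.39 ± 0.63), Adamts10 (-0.53 ± 0.53) and Adamts16 (-0.23 ± 0.66), differences between GFP-positive and control cells that passed neither fit. Across the 10 tested ADAMTS genes the median difference was -0.53, against 0.04 over all genes tested. Lower in both replicates were 9 of them, against 29.2% of all genes. For GFP-negative cells the median was -0.26, also against 0.04, and 5 of the 10 were lower in both replicates, against 27.6% of all genes. Adamts3, one of the procollagen N-proteinases, was dim and uneven at 121.4 and 62.2 in controls, 11 and 62.1 in GFP-negative cells and 78.0 and 3.0 in GFP-positive cells. Its other probe set, dim as well, gave 75.1 and 73.6 in controls, 48.9 and 20.2 in GFP-negative cells and 5.1 and 4.9 in GFP-positive cells. On that probe set the groups did not overlap. Without the filter its difference was -1.56 for GFP-positive cells, with a blocked adjusted p of 0.1 in limma, so it was not called. Adamts18 was dim as well, at 79.9 and 52.6 in controls against 9.8 and 4.0 in GFP-negative and 18.3 and 2.0 in GFP-positive cells. The groups did not overlap there, but another of its probe sets was higher in treated cells (log2 difference 0.81 and 0.61 for GFP-positive replicates 1 and 2), so the direction is unsettled. Adamts20, a versicanase of the developing skin, had 4.6 and 51.7 in controls, 43.6 and 37.9 in GFP-negative cells and 50.7 and 33.6 in GFP-positive cells, with no separation of the groups. Adamts2 and Adamts14 had no probe set of a single symbol and were not measured here.

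**Figure D2:**
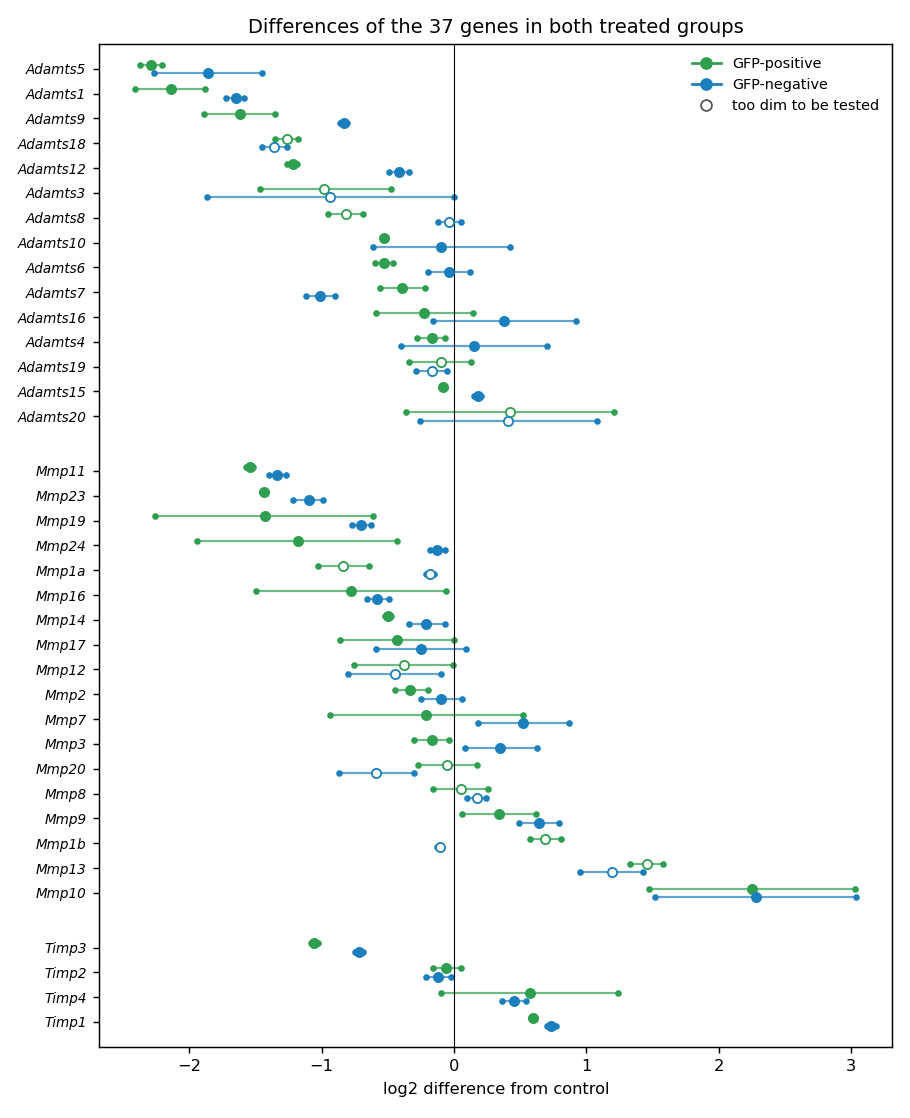
Log2 difference from control (on log2(signal + 30.64), horizontal axis) of GFP-positive and GFP-negative cells for all 37 members, grouped as Adamts, Mmp and Timp. Large points are means (open where the member was too dim to be tested), and small points joined by a line are the values within each replicate number. Adamts5 and Adamts1 lie farthest below 0 and Mmp10 farthest above.

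The stromelysins and collagenases are the classical inducible enzymes of fibroblasts, and most of their genes form a block on mouse chromosome 9. In the RefSeq gene table the block held 10 Mmp genes, in the order Mmp13, Mmp12, Mmp1b, Mmp3, Mmp1a, Mmp10, Mmp8, Mmp27, Mmp20 and Mmp7, with 0 other protein-coding genes within it. All but Mmp27 are members, and only Mmp3, Mmp7 and Mmp10 of these 9 were bright enough to be tested. Promoter sequence (RefSeq, GRCm38.p6, 250 bases before to 50 after the start of transcription) was at hand for all 9. The AP-1 motif TGANTCA stood in at least 1 window of 8 of them and the TATA motif TATAAA in a window of all 9, searched on both strands, and 8 held both in 1 window. Over all 32851 promoter windows of the table, 7.81% held the AP-1 motif, 13.6% the TATA motif and 1.54% both. AP-1 (Jun and Fos proteins) is the factor through which growth factors, cytokines and stress act on such genes. The letters are a description of the sequence, and binding was not measured. The 150 bases before the start are shown for 3 neighbours whose signals went different ways, with both motifs in capitals: Mmp10 (chr9:7502192-7502341), Mmp13 (chr9:7272364-7272513) and Mmp3 (chr9:7445672-7445821), all on the plus strand.
Mmp10: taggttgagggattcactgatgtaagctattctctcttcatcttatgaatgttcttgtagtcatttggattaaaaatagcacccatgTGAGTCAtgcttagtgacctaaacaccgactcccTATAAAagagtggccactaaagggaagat
Mmp13: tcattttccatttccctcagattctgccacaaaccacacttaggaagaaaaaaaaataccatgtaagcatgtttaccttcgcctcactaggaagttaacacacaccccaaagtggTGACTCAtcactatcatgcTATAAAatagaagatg
Mmp3: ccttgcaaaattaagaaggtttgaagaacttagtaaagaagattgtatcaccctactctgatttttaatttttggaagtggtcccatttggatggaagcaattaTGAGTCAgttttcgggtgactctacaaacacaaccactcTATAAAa
Counted back from the base before the start as -1, the AP-1 motif begins at -63 in Mmp10, at -35 in Mmp13 and at -46 in Mmp3, and TATAAA at -29, -16 and -7.

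Mmp10 (stromelysin 2) had the largest positive difference among the tested members on this log2 scale. It gave 73.2 and 11.7 in controls, 266.6 and 317.6 in GFP-negative cells and 257.4 and 314.7 in GFP-positive cells. All 4 treated arrays lay well above both controls, and the treated groups overlapped. The difference from control was 2.25 ± 0.51 for GFP-positive cells (1.47 and 3.03), adjusted p 0.25 in limma and 0.0088 with the block. For GFP-negative cells it was 2.28 ± 0.51 (1.52 and 3.04), adjusted p 0.383 and 0.0114 with the block. The signal on control 2 lies below the offset, so the size of this difference depends on the offset.

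Mmp13, the main collagenase of the mouse, was dim throughout. Its signals were 5.4 and 4.1 in controls, 39.2 and 62.9 in GFP-negative cells and 60.2 and 73.2 in GFP-positive cells. Every treated array was above both controls, but only GFP-positive replicate 2 exceeded the filter value of 67.71. Without the filter the difference was 1.46 ± 0.48 for GFP-positive cells, adjusted p 0.639 in limma and 0.131 with the block, so it was not called.

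Mmp3 (stromelysin 1), which lies between these genes and holds both motifs as well, did not move with them. It gave 103.5 and 79.9 in controls, 176.8 and 86.3 in GFP-negative cells and 99.4 and 59.4 in GFP-positive cells, a difference of -0.17 ± 0.55 for GFP-positive cells with overlapping groups. Mmp7 (matrilysin) was uneven within groups, at 132.3 and 13.6 in controls, 267.4 and 19.3 in GFP-negative cells and 54.5 and 32.7 in GFP-positive cells. The remaining genes of the block were dim. The collagenase-like Mmp1a gave 54.9 and 40.1 in controls against 24.2 and 4.0 in GFP-positive cells, and Mmp1b 5.4 and 5.5 against 23 and 32.7. Mmp8 (neutrophil collagenase), Mmp12 (macrophage elastase) and Mmp20 (enamelysin, of tooth enamel) stayed at or below 86.2 on every array.

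Mmp11 and Mmp23 differ from the classical secreted enzymes in that furin-like convertases activate them inside the cell. Mmp11 (stromelysin 3), an enzyme of stromal fibroblasts, gave 1343 and 1317 in controls, 540.1 and 478.9 in GFP-negative cells and 432.1 and 440.3 in GFP-positive cells. Replicates lay close together and all treated arrays were less than controls without overlap. GFP-positive cells differed by -1.54 ± 0.24 (-1.57 and -1.52), adjusted p 0.0831 in limma and 0.000558 with the block, and GFP-negative cells by -1.34 ± 0.24 (-1.27 and -1.40), adjusted p 0.233 and 0.00212 with the block.

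Mmp23 gave 3669 and 3270 in controls, 1558 and 1634 in GFP-negative cells and 1323 and 1194 in GFP-positive cells, again without overlap between treated and control arrays. GFP-positive cells kept 36.1% and 36.5% of the control signal, a difference of -1.44 ± 0.21, adjusted p 0.0763 in limma and 0.000211 with the block. GFP-negative cells differed by -1.10 ± 0.21, adjusted p 0.253 and 0.00172 with the block. Its other probe set gave -1.05 for GFP-positive cells (0.00655 with the block).

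The cell-surface collagenase Mmp14 (MT1-MMP), which activates Mmp2, was strongly expressed on all arrays. Its signals were 16279 and 7624 in controls, 12863 and 7254 in GFP-negative cells and 11701 and 5315 in GFP-positive cells. The difference between replicate numbers exceeded that between groups, and groups overlapped. Within replicates GFP-positive cells were at -0.48 and -0.52, in all -0.50 ± 0.49, adjusted p 0.997 in limma and 0.0433 with the block. That call was lost when dim probe sets were kept in the blocked fit (0.0953). Without both rescaled arrays the difference was 0.07, but that fit had no block and set GFP-positive 1 against both controls. The other probe sets of Mmp14 gave -0.50 (blocked adjusted p 0.059) and -0.82 (0.0194).

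The gelatinases degrade denatured collagen and basement membrane. Mmp2, the constitutive one of fibroblasts, gave 3853 and 3804 in controls, 4007 and 3201 in GFP-negative cells and 3347 and 2777 in GFP-positive cells, differences of -0.10 ± 0.22 and -0.33 ± 0.22 that passed neither fit. Mmp9, mainly of leukocytes and keratinocytes, gave 170.0 and 92.7 in controls, 250.5 and 183.0 in GFP-negative cells and 178.7 and 158.3 in GFP-positive cells, differences of 0.64 ± 0.42 and 0.34 ± 0.42, called in neither fit. Mmp19 gave 332.8 and 215.3 in controls, 183.2 and 128.2 in GFP-negative cells and 207.3 and 20.8 in GFP-positive cells. All 4 treated arrays were below both controls, and the difference for GFP-positive cells (-1.43 ± 0.70) rests largely on GFP-positive replicate 2: it was -0.61 in replicate 1, and 0.0839 was its blocked adjusted p in limma. The membrane-type enzymes Mmp16, Mmp17 and Mmp24 had differences of -0.78 ± 0.46, -0.43 ± 0.59 and -1.18 ± 0.58 between GFP-positive and control cells, none of them called.

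The inhibitors split. Timp1, an X-linked gene and the inducible inhibitor of the family, gave 11190 and 18442 in controls, 19093 and 29956 in GFP-negative cells and 17125 and 27555 in GFP-positive cells. Control replicate 2 lay above GFP-positive replicate 1, so the groups overlap, but within each replicate number both treated arrays were above the control. Treated cells had 153% and 149% (GFP-positive) and 171% and 162% (GFP-negative) of the control signal. The differences were 0.60 ± 0.36 (adjusted p 0.895 in limma, 0.0105 with the block) for GFP-positive and 0.73 ± 0.36 (0.00454 with the block) for GFP-negative cells. Between GFP-positive and GFP-negative cells Timp1 differed by -0.14 ± 0.36 (-0.16 and -0.12 within replicates), called in neither fit. Which X chromosome the Timp1 signal came from was not tested.

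Timp3, which binds to the matrix and inhibits ADAMTS enzymes as well as Mmps, gave 20487 and 15574 in controls, 12173 and 9620 in GFP-negative cells and 9699 and 7589 in GFP-positive cells. All treated arrays were below both controls. GFP-positive cells kept 47.3% and 48.7% of the control signal, a difference of -1.06 ± 0.25 (-1.08 and -1.03), adjusted p 0.281 in limma and 0.000331 with the block. GFP-negative cells differed by -0.72 ± 0.25, adjusted p 0.759 and 0.00567 with the block. The other 3 probe sets of Timp3 were lower in GFP-positive cells too, at -1.10, -0.96 and -0.88, and all passed with the block (0.000312, 0.0392 and 0.00422).

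Timp2, the inhibitor that also takes part in Mmp2 activation, gave 20221 and 27670 in controls, 19953 and 23876 in GFP-negative cells and 20909 and 24783 in GFP-positive cells. The groups overlapped and the difference was -0.06 ± 0.24 for GFP-positive cells. Of its other tested probe sets 1 passed with the block at -0.53 (0.0483), and the remainder lay between -0.50 and -0.15 and were not called. Timp4 was weak, at 117.9 and 73.4 in controls, 159.4 and 120.1 in GFP-negative cells and 107.8 and 215.7 in GFP-positive cells, and its difference of 0.57 ± 0.50 was made by replicate 2 (1.24, against -0.10 in replicate 1).

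Members outside the chromosome 9 block had other promoters, where a window was at hand. Of these 28 members 14 had a window in the RefSeq table. Those without one were Adamts4, Adamts5, Adamts6, Adamts7, Adamts8, Adamts10, Adamts15, Adamts16, Adamts19, Mmp2, Mmp9, Mmp16, Mmp17 and Mmp19. The AP-1 motif was in 0 of the 14 with a window, and TATAAA in 1, Adamts1, at -32. Their 15 windows of 300 bases held 2 to 44 CpG dinucleotides, the sites that DNA methyltransferases methylate, with a median of 22. The 11 windows of the block held 0 to 7, with a median of 1, and over all windows the median was 7 and the quartiles 3 and 20. The 150 bases before the start are shown for 3 of the genes with lower signals in treated cells, with each CpG in capitals: Adamts1 (chr16:85803114-85803263, minus strand), Mmp11 (chr10:75932503-75932652, minus strand) and Timp3 (chr10:86300262-86300411, plus strand).
Adamts1: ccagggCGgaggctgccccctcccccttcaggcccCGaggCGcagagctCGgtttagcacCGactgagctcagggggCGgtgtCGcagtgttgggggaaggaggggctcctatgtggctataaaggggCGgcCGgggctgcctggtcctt
Mmp11: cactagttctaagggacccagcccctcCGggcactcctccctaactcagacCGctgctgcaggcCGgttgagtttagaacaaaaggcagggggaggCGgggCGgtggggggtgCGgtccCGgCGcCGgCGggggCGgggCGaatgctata
Timp3: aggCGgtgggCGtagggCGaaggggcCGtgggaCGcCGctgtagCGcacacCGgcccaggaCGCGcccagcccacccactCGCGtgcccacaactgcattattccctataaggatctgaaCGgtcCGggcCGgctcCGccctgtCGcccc
These stretches hold 9, 12 and 17 CpG, against 1 each in the stretches of Mmp10, Mmp13 and Mmp3 above. Adamts12, whose signal was lower as well, holds 4 in the same stretch and 7 in its window. Methylation of these windows was not analysed here. The window of Timp2 held 25 CpG, that of Timp3 24 and that of Timp1 8.

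**Figure D3:**
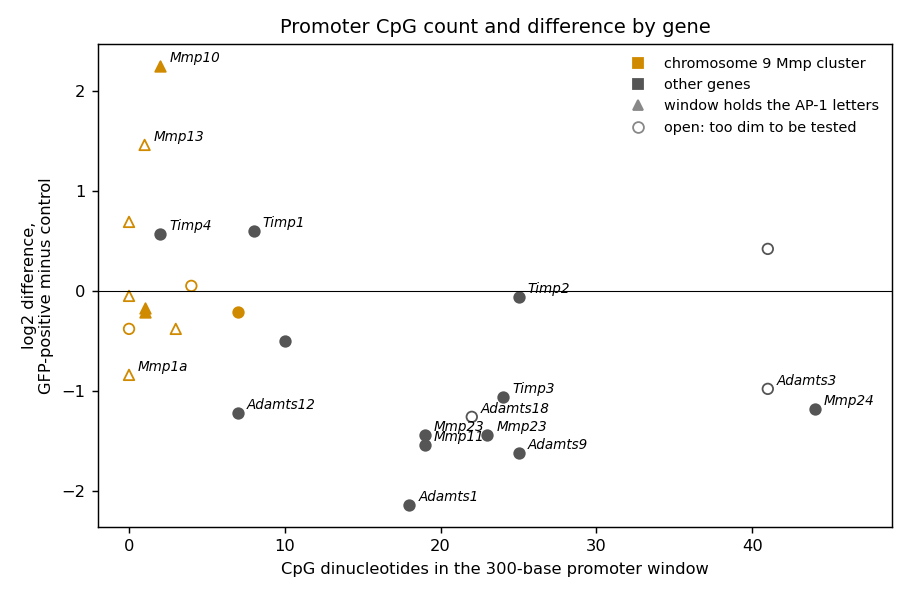
CpG dinucleotides in the 300-base promoter window (horizontal axis) against the log2 difference between GFP-positive and control cells, on log2(signal + 30.64) (vertical axis), for the members with a RefSeq promoter window, 1 point per window, with triangles for windows that hold the AP-1 letters and open symbols for members too dim to be tested. Genes of the chromosome 9 block sit at 0 to 7 CpG, Mmp10 at the top, while the other members range from 2 to 44.

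For GFP-negative cells, compared with the same control arrays, Adamts4, Adamts15, Adamts16, Mmp3 and Mmp7 had signs opposite to those in GFP-positive cells, all uncalled. The unblocked fit of limma called 0 of 26 members against control, where it called 0.0454% of all genes. Its unadjusted p was under 0.05 for 820 of 13223 genes tested and for 6 of the members. The blocked fit called 7, where it called 4.53% of all (2.1% as lower and 2.43% as higher): Adamts1, Adamts5, Mmp11, Mmp23 and Timp3 as lower and Mmp10 and Timp1 as higher. The median over the tested members was -0.12, while within replicates 1 and 2 it was -0.26 and -0.2. A total of 13 members were lower in both replicates, against 27.6% of all genes, and 7 were higher in both, against 35.1%. Differences of 1 or more in both replicates were lower in 3 (0.96% of all) and higher in 1 (1.54% of all). The median of -0.12 became 0.04 without both rescaled arrays or without GFP-negative 2 alone, 0.03 without control 1, -0.44 without control 2 and -0.46 without GFP-negative 1.

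Directly compared, GFP-positive and GFP-negative cells differed in 0 of 26 members in either fit, where 0% of all genes were called in either fit. Without the block, the unadjusted p in limma was under 0.05 for 69 of 13223 genes tested and for 1 of the members. The median difference was -0.33 (-0.27 and -0.35 within replicates), with -0.13 without GFP-negative 1, -0.19 without GFP-positive 2, -0.50 without GFP-negative 2 and -0.62 without GFP-positive 1. A total of 18 members were lower in GFP-positive cells in both replicates, against 27.3% of all genes. That Adamts9, Adamts12 and Mmp14 passed the blocked fit in GFP-positive cells and not in GFP-negative cells therefore does not show a difference between the sorted groups. With both treated groups averaged, 1 of 26 members was called against control, Adamts1 at -1.90 (adjusted p 0.023 in limma), where 0.242% of all genes were called. That call was lost without control 1, control 2, GFP-negative 2 or GFP-positive 2, with adjusted p from 0.0534 to 0.15. The blocked fit called 9, where it called 8.69% of all, namely the members called in GFP-positive cells without Mmp14.

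Other genes of matrix proteolysis were taken from a list of 61, of which 59 were measured and 51 tested. In GFP-positive against control cells the unblocked fit called 1, as lower, and the blocked fit 6 higher and 8 lower, with a median of -0.04, where 0.151% and 7.77% of all genes were called. For GFP-negative cells it was 0 in the unblocked and 6 higher and 5 lower in the blocked fit, with a median of -0.08, where 0.0454% and 4.53% of all genes were called. The called gene was Pappa, a metzincin that cleaves IGF-binding proteins, with 3628 and 3913 in controls, 2046 and 1535 in GFP-negative cells and 1111 and 883.6 in GFP-positive cells. Its difference was -1.89 ± 0.24 for GFP-positive cells, adjusted p 0.0477 in limma.

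Plasminogen activation, which lies upstream of Mmp activation, went more than one way. Serpinb2, an inhibitor of urokinase, gave 40.5 and 62.9 in controls, 437.8 and 1347 in GFP-negative cells and 549.2 and 1648 in GFP-positive cells, a difference of 3.60 ± 0.62 for GFP-positive cells (blocked adjusted p 5.48e-05 in limma, and 0.000179 without the filter). Like Mmp10, it passed the filter through its treated arrays. Plaur, the urokinase receptor, gave 927.4 and 1362 in controls and between 2624 and 3622 on treated arrays, 1.51 ± 0.27 for GFP-positive cells (0.000177 with the block). Plat, tissue plasminogen activator, was at -0.65 ± 0.23 (0.0328 with the block).

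Among other inhibitors, Tfpi2, which blocks plasmin, was at 2.40 ± 0.52 (0.00147 with the block), and Reck, a membrane inhibitor of Mmps, at -1.39 ± 0.34 (0.00348), for GFP-positive against control cells. Ctsk, the collagen-degrading cathepsin K, was at -1.24 ± 0.22 (0.000678). Of the procollagen-processing group, Pcolce2 and Tll1 were at 1.10 ± 0.26 (0.00525) and 0.91 ± 0.23 (0.008). Adam8 was at 1.81 ± 0.74 (0.0471), with control signals of 143.7 and 3.7, and its call was lost when dim probe sets were kept (0.117). Of 4 tested proprotein convertases the blocked fit called 1, as lower. It was not Furin, which was at 0.71 ± 0.51 (0.0813). The substrates that passed the blocked fit in GFP-positive cells were lower: Dcn (decorin) at -3.36 ± 1.15 (6.69e-06), Col3a1 at -0.93 ± 0.22 (0.00339) and Col1a1 at -0.76 ± 0.35 (0.0157), 3 of 12 tested substrates. The call of Col1a1 was lost when dim probe sets were kept (0.0506). Of all genes tested, the blocked fit called 3.8% as lower in GFP-positive cells. In GFP-negative cells it called 2 of the 12 substrates as lower, where it called 2.1% of all genes as lower.

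**Figure D4:**
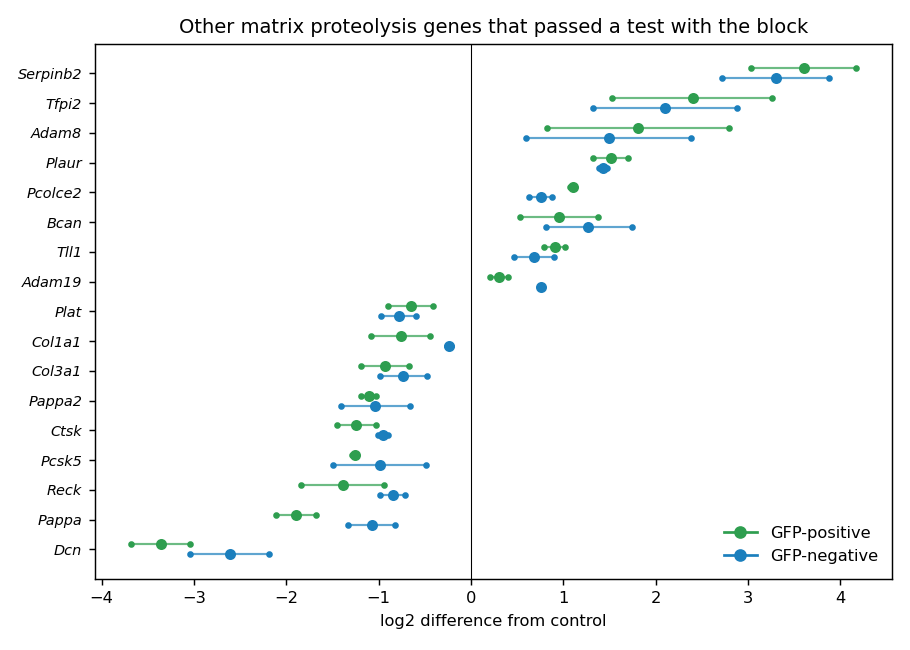
Log2 difference from control, on log2(signal + 30.64), for the genes of the matrix proteolysis list that passed the blocked fit in at least 1 comparison with control. Large points are means, and small points joined by a line are the values within each replicate number, for GFP-positive and GFP-negative cells. Serpinb2 lies farthest above 0 and Dcn farthest below.

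Markers show what else moved with these genes. All 12 dermal fibroblast markers were tested, and 9 were lower in GFP-positive cells in the blocked fit (8 in GFP-negative cells), where 3.8% and 2.1% of all genes were called as lower, with 0 called without the block. Their summed signal was 155732 and 144768 in controls, 114578 and 97787 in GFP-negative and 103079 and 86625 in GFP-positive cells. Dcn, Col3a1 and Col1a1, given above as substrates, are among these fibroblast markers and are counted again here. For 10 leukocyte markers, 6 of them tested and 0 called in either fit for each treated group, the sums were 1361 and 852.4 in controls and 1454 to 1876 on treated arrays. The median difference over those tested was 0.86 for GFP-positive and 0.89 for GFP-negative cells, and with both treated groups averaged Cd68 was higher with the block (adjusted p 0.0448 in limma). Skeletal muscle markers summed to 4447 and 9402 in controls and 12662 and 16353 in GFP-negative cells, and to 12846 and 12753 in GFP-positive cells. In each treated group 1 of 3 tested was higher with the block, where 3.97% (GFP-positive) and 2.43% (GFP-negative) of all genes were called as higher. The median difference over those 3 was only -0.07 for GFP-positive and 0.2 for GFP-negative cells, so the sums do not stand for each gene. The part of these shifts in the differences of Mmp, ADAMTS and Timp genes was not tested.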

How the data were processed

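The authors deposited a linear signal intensity for each probe set on each array, from MAS5 per the submitters' processing notes (version not given in the sources used here). Arrays were scaled to 500 by the 2% trimmed mean. After removal of 64 control probe sets 45037 of 45101 remained, of which 34945 carried 1 gene symbol in the platform annotation, 932 several and 9160 none. The offset of 30.64 is the arrays' median 25th percentile, and the filter (67.71) the 40th percentile of mean signals. The number of arrays limits the precision.

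Linear models over all 6 arrays were fitted in R 4.3.3 with limma 3.58.1 (eBayes with a trend, 3 residual degrees of freedom, 2 with the block, two-sided, Benjamini-Hochberg over 27022 probe sets). Deviations of same-numbered arrays from their group means correlated at 0.51, 0.51 and 0.56 over the 3 pairs of groups. This is why the block was treated as a pairing, although the labels give no shared culture.

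Members, marker lists and the proteolysis list were chosen with earlier results of these data known. Members given array by array are those called in any fit, the Timp genes, and textbook collagenases, stromelysins, gelatinases, Mmp14, Mmp19, aggrecanases, versicanases and procollagen N-proteinases. A further rule took members that differed from control by 1 log2 or more in the same direction within both replicates, in either treated group. Adamts18 came in by this last rule, which uses the values themselves. Mmp1a, Mmp1b and Mmp7 were added after their values were seen. Promoters came from RefSeq for 23 of 37 members. Protein sequences were not used here. Of the marker lists not named in the text, the keratinocyte and smooth muscle lists each had 1 gene higher in GFP-positive cells with the block, and the melanocyte, endothelial, Schwann and adipocyte lists 0. Alternatives were other offsets, filters, normalizations and probe-set rules, the block, and leaving out each array. Leaving out both rescaled arrays and the block without a filter were chosen after seeing the data.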

Additional observations from a re-analysis of the deposited data

How the results depend on the processing

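With 2 arrays a group, calls depended on the fit more than directions did. Of all genes tested, the unblocked fit called 0.151% for GFP-positive, 0.0454% for GFP-negative and 0.242% for all treated cells. The blocked fit called 7.77%, 4.53% and 8.69%. For the other settings the share of all genes was not counted, so the members' counts there have no background beside them. Members called between GFP-positive and control cells were 1 as reported, 0 with median centring or without a trend, 10 with the replicate block (also with quantile normalization), 9 with the block and no filter, 0 with the block and no trend, and 0 to 1 with an array left out. Between GFP-negative and control cells they were 7 with the block, with or without the filter or with quantile normalization, in place of 0. For all treated cells they were 2 with the filter at the 60th percentile, with the mean of a gene's probe sets or with quantile normalization, 3 without the filter or without cross-binding probe sets, 0 with median centring, without a trend or with the block and no trend, 9 with the block (alone, with no filter or with quantile normalization), and 0 to 1 with an array left out.

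The median difference for GFP-positive cells against control (-0.46) was -0.37 with a 4-fold offset, -0.53 with the 60th percentile, -0.40 with the mean of probe sets, -0.39 without the filter (also with the block), -0.51 with quantile normalization (also with the block), -0.17 without both rescaled arrays, and -0.83 to -0.17 with an array left out. For GFP-negative cells (-0.12) it was -0.23 with the 60th percentile, -0.25 with the mean of probe sets, -0.16 with median centring, -0.19 with quantile normalization (also with the block), 0.04 without both rescaled arrays, and -0.46 to 0.04 with an array left out. Between the treated groups (-0.33) it was -0.27 without the rescaled arrays, -0.26 with the mean of probe sets or without the filter (also with the block), and -0.62 to -0.13 with an array left out. For all treated cells (-0.33) it was -0.26 with a 4-fold offset, -0.15 without the rescaled arrays, and -0.72 to -0.15 with an array left out.

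Direction turned in some named members, none of them called without the block. Without the rescaled arrays, Mmp14 was at 0.07 (GFP-positive) and 0.21 (GFP-negative), Adamts15 at 0.17 and Mmp3 at 0.09 (GFP-positive), and Adamts4 at -0.23 and Mmp2 at 0.07 (GFP-negative). With the mean of probe sets Adamts4 was at -0.12 (GFP-negative) and Mmp9 at -0.01 (GFP-positive). With an array left out the ranges for GFP-positive cells were -0.33 to 0.17 (Adamts15), -1.06 to 0.07 (Mmp14), -0.44 to 0.09 (Mmp3), -0.01 to 0.69 (Mmp9) and -0.28 to 0.17 (Timp2). For GFP-negative cells they were -0.07 to 0.43 (Adamts15), -0.23 to 0.53 (Adamts4), -0.75 to 0.34 (Mmp14), -0.26 to 0.07 (Mmp2), -0.06 to 0.77 (Mmp3) and -0.34 to 0.11 (Timp2). The fits with arrays left out had no block, so they also set arrays of unlike replicate numbers against each other. The cause of these turns was not tested. Dim members below the filter have no call at all.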
